A study of Caenorhabditis elegans with 18 samples.

Results

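The 10 genes studied here, of the worm's hypoxia and hydrogen sulphide response, were followed across 18 arrays: hif-1, egl-9, rhy-1, cysl-1, nhr-57, cysl-2, phy-2, cysl-3, sqrd-1 and ethe-1. Members were the probe sets, that is, the groups of short probes that report 1 transcript, whose annotated symbol was one of these genes. The 10 genes had 11 such probe sets, of 22548 on the array and of 17138 genes with a single symbol, because cysl-1 was measured by 171782_x_at and by 189484_at. A further probe set, 181502_s_at, is annotated to both rhy-1 and oac-54, which have 0 protein-coding genes between them in the RefSeq gene table, and it is described apart.

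All samples were total RNA of whole Caenorhabditis elegans of the wild-type strain N2, kept at 20 °C with Escherichia coli OP50 as food. In the TRF+H2O2+TRF group (n = 4), TRF was given before and after hydrogen peroxide (H2O2), from hatching to day 3 of adulthood, and its labels do not repeat the peroxide dose. The H2O2 group (n = 5) received 0.3 mM H2O2 for 2 h at the L4 stage, the last larval stage. The TRF group (n = 4) was given TRF for its whole life cycle, and the control group (n = 5) aged normally. The labels do not spell out TRF, nor the age at which worms of each group were collected. Nothing in them says that replicates were separate cultures, so p-values measure the spread between these samples, which may be partly technical. In RNA of whole worms, fewer cells of a type and less RNA per cell cannot be told apart.

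HIF-1 is the transcription factor through which animals respond to low oxygen. When oxygen is present, the hydroxylase EGL-9 modifies HIF-1 so that the VHL-1 ubiquitin ligase marks it for degradation, and the membrane protein RHY-1 also holds HIF-1 activity down. Hydrogen sulphide, a by-product of sulphur amino acid metabolism, promotes the binding of CYSL-1 to EGL-9, which relieves HIF-1 of this inhibition. Stabilised HIF-1 turns on genes such as nhr-57, cysl-2 and phy-2 as well as egl-9 and rhy-1 themselves, while mitochondrial enzymes encoded by sqrd-1 and ethe-1 oxidise the sulphide. Much of this control of HIF-1 acts on the protein, which an RNA array does not measure.

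None of the 11 member probe sets passed the test in any of the 5 comparisons of 2 groups. The nearest to a difference were 2 HIF-1 targets, nhr-57 and cysl-2. Both had higher signals on all 4 TRF+H2O2+TRF arrays than on any of the 4 TRF arrays, by 1.38-fold each on average. In H2O2 worms nhr-57 averaged 1.36-fold its control level and was higher in 5 of 5 pairs of equal replicate number. The signals of egl-9, rhy-1, nhr-57, cysl-2 and phy-2 also varied together from array to array, within groups as well as between them. This was not particular to these targets, since probe set 189484_at of the regulator cysl-1 varied with them too.

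**Figure D1:**
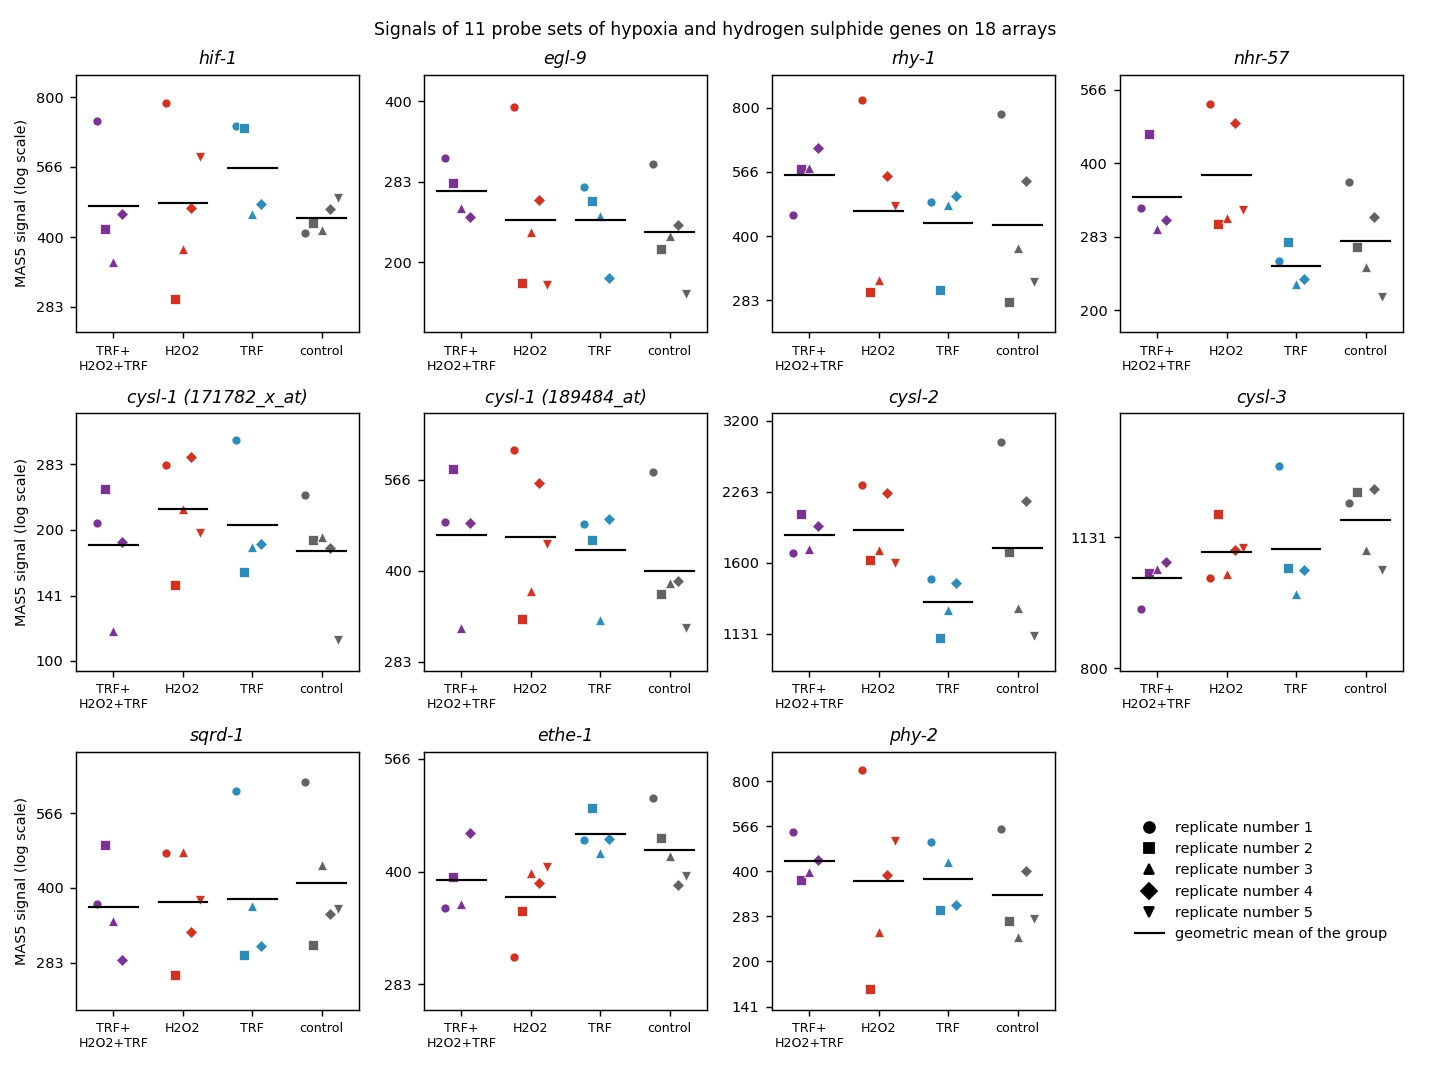
MAS5 signals (vertical axis, log scale, arbitrary units) of the 11 member probe sets on the 18 arrays, with groups from left to right in the order TRF+H2O2+TRF, H2O2, TRF and control. Marker shapes give the replicate number and bars the geometric mean of a group; for nhr-57 and cysl-2 all 4 TRF+H2O2+TRF points lie above all 4 TRF points, while elsewhere these 2 groups overlap.

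All 11 member probe sets passed the filter on low signals, which lay at a geometric mean signal of 47.0. By their mean over 18 arrays they stood between the 60.2th percentile of all probe sets (cysl-1, 171782_x_at) and the 89.8th (cysl-2). Signals of different probe sets depend on their probes and were not compared as levels of different genes. Every array had the same trimmed mean signal, their mean correlation with the other arrays lay between 0.955 and 0.971, and no 2 arrays were identical. The phy-2 probe set had the widest range among the members, 5.37-fold between its lowest and highest array, and its standard deviation over 18 arrays lay at the 89.9th percentile of the tested probe sets. The narrowest was that of cysl-3, 1.46-fold, at the 6.97th percentile.

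Among the regulators, hif-1 had signals of 711, 415, 354 and 449 in TRF+H2O2+TRF worms, 778, 294, 376, 462 and 595 in H2O2 worms, 693, 685, 449.5 and 470.4 in TRF worms, and 409, 429, 414, 461 and 485 in controls. The controls were close to each other, whereas each of the other groups held arrays far above them, and the TRF+H2O2+TRF and H2O2 groups also arrays below. On a linear scale the group means were 482 ± 158, 501 ± 191, 575 ± 133 and 439 ± 32.5 (SD) in the same order of groups, and no neighbouring groups in the order of means were further apart than their spread. The SD of the controls was the smallest of the 4.

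Signals of egl-9, the oxygen-dependent hydroxylase, were 314, 282, 252 and 243 in TRF+H2O2+TRF worms, 391, 183, 227, 262 and 181 in H2O2 worms, 276, 260.4, 244 and 187 in TRF worms, and 305, 212, 224, 235 and 174 in controls. All 4 groups overlapped, and the arrays numbered 1 were the highest of their group in each of them. Those of rhy-1 were 448, 574, 577 and 644 in TRF+H2O2+TRF worms, 833, 295, 317, 553 and 470.2 in H2O2 worms, 482, 299, 474 and 497 in TRF worms, and 775, 281, 375, 539.9 and 312 in controls. Here the H2O2 and control arrays covered a range of almost the same extent, 2.82-fold and 2.76-fold, and 1 of the TRF arrays, number 2, was well below the other 3. The shared rhy-1 and oac-54 probe set followed rhy-1 closely (r = 0.893 over 18 arrays) and gave 503, 519.8, 559 and 652 in TRF+H2O2+TRF worms, 874, 274, 317, 484 and 597 in H2O2 worms, 579, 231, 607 and 567 in TRF worms, and 726, 285, 255, 633 and 413 in controls.

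For cysl-1, whose protein binds EGL-9, probe set 189484_at gave 481, 591, 321 and 479.9 in TRF+H2O2+TRF worms, 634, 333, 370.2, 559 and 443 in H2O2 worms, 479, 449, 332 and 488 in TRF worms, and 583, 366, 382, 385 and 322 in controls. The probe set 171782_x_at was dimmer, with signals between 112 on a control array and 322 on a TRF array. The 2 probe sets correlated at r = 0.763 over the 18 arrays. The suffixes x_at and s_at mark probe sets whose probes can match other transcripts, so signals of the cysl-1, cysl-2 and cysl-3 paralogues may not be wholly separate.

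Among the targets, nhr-57, a nuclear hormone receptor gene widely used as a reporter of HIF-1 activity, had signals of 324, 460.0, 294 and 306 in TRF+H2O2+TRF worms and 529, 301, 309, 484 and 320.2 in H2O2 worms. The TRF arrays gave 252, 276, 226 and 232, and the controls 367, 269.5, 245, 311 and 212. The lowest of the TRF+H2O2+TRF arrays stood above the highest of the TRF arrays, while every group overlapped the controls. The means were 346 ± 76.9 (SD, n = 4) in TRF+H2O2+TRF worms, 389 ± 109 (n = 5) in H2O2 worms, 247 ± 22.5 (n = 4) in TRF worms and 281 ± 59.9 (n = 5) in controls. In the order H2O2, TRF+H2O2+TRF, control, TRF, each step was smaller than the larger SD of the 2 groups it joined.

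The brightest member was cysl-2, whose enzyme, related to cysteine synthases, detoxifies cyanide and is strongly induced by HIF-1. Its signals were 1676, 2024, 1706 and 1916 in TRF+H2O2+TRF worms, 2334, 1624, 1704, 2244 and 1593 in H2O2 worms, 1475, 1109.9, 1272 and 1451 in TRF worms, and 2881, 1682, 1284, 2156 and 1117 in controls. The control arrays covered a 2.58-fold range that held every array of the TRF+H2O2+TRF and H2O2 groups and 3 of the 4 TRF arrays. The TRF+H2O2+TRF and TRF arrays did not overlap. Signals of phy-2, which encodes a catalytic subunit of the collagen prolyl 4-hydroxylase of the cuticle, were 541, 373, 397 and 437 in TRF+H2O2+TRF worms, 869.9, 162, 250.0, 389 and 505 in H2O2 worms, 501, 297, 429 and 307 in TRF worms, and 553, 272, 242, 400.3 and 277 in controls. Both the highest and the lowest phy-2 array of the series were H2O2 arrays.

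Of the sulphide and sulphur enzymes, ethe-1, the persulphide dioxygenase of the mitochondrion, had signals of 358, 394, 363 and 450.2 in TRF+H2O2+TRF worms, 308, 354, 399, 387 and 406 in H2O2 worms, 441, 487, 424 and 442 in TRF worms, and 502, 444, 420.4, 384 and 395 in controls. Each of the other groups overlapped the controls. The gene of the sulphide:quinone oxidoreductase that acts before it, sqrd-1, had signals of 372, 487, 343 and 286 in TRF+H2O2+TRF worms, 470.3, 267, 473, 326 and 378 in H2O2 worms, 628, 293, 367 and 306 in TRF worms, and 653, 306, 446, 355 and 363 in controls. No group stood apart for sqrd-1. The third paralogue of the family, cysl-3, had signals of 935, 1030.3, 1039 and 1061 in TRF+H2O2+TRF worms, 1016, 1203, 1028, 1095 and 1100.5 in H2O2 worms, 1365, 1042, 975 and 1038 in TRF worms, and 1239, 1275, 1094, 1286 and 1038 in controls. Its TRF+H2O2+TRF arrays overlapped the controls only through control array 5.

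Differences between groups were tested with limma on log2(signal + 1) over all 13529 probe sets that passed the filter, with Benjamini-Hochberg adjustment over all of them and a threshold of 0.05. A log2 fold change is given as the first group minus the one it is set against, with its standard error, whose size depends on how few arrays there were.

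The comparison of TRF+H2O2+TRF with TRF worms, whose labels differ in the peroxide and in the stated span of TRF, held the largest differences among the members, in nhr-57 and cysl-2. For nhr-57 the log2 fold change was 0.47 ± 0.18 (95% interval 0.07 to 0.87) and for cysl-2 it was 0.47 ± 0.13 (0.18 to 0.75). Neither passed the threshold (limma, adjusted p = 0.9999 for every member). At an unadjusted p under 0.05, limma called these 2 of the 11 members, against 1.46% of all tested probe sets. By unadjusted p cysl-2 ranked 15th and nhr-57 89th of all 13529. Groups that did not overlap were likewise found for these 2 of 11 members, both higher, against 0.532% of all tested probe sets higher without overlap. By the adjusted p 0 of 11 members were called, as were 0% of all tested probe sets.

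Higher means in TRF+H2O2+TRF than in TRF worms were seen for 6 of the 11 members, against 46.5% of all probe sets, with a median of 0.08 against -0.01. The next largest was rhy-1 at 0.37 ± 0.20, higher in 3 of 4 pairs of equal replicate number, and the lowest was hif-1 at -0.27 ± 0.24. Without TRF array 2, the lowest TRF array of rhy-1, its difference was 0.20. Replicate numbers paired these 2 groups, since arrays of equal number deviated together, and with the number as a block the standard errors of nhr-57 and cysl-2 were 0.12 and 0.11 and their adjusted p 0.541. By unadjusted p of that fit they ranked 106th and 75th, and 3 of 11 members, with rhy-1, were under 0.05, against 6.46% of all probe sets. The pairwise differences lay between 0.36 and 0.74 for nhr-57 and between 0.18 and 0.87 for cysl-2, and together with egl-9, at 0.05 to 0.38, these were the 3 of 11 members higher in every pair, against 6.13% of all probe sets.

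Markers of body wall muscle moved with these differences: 6 of 6 muscle genes had higher means in TRF+H2O2+TRF than in TRF worms, with a median log2 fold change of 0.31 and 0 called. Their summed signal ranged from 10656 to 18245 on TRF+H2O2+TRF arrays and from 8810 to 13944 on TRF arrays, and 0 of the 6 were at 0 on any array. Intestinal markers were likewise higher in 6 of 6 genes, with a median of 0.11 and summed signals of 4811 to 6509 against 4231 to 6185. Germline markers were lower in 6 of 6 genes, with a median of -0.13 and summed signals of 13118 to 17650 in TRF+H2O2+TRF worms against 15104 to 17179 in TRF worms. The other lists were mixed or lower. Hypodermal markers had 2 higher and 3 lower means (median -0.09), and neuronal ones 4 higher and 3 lower (0.02). Yolk markers had 2 higher and 3 lower (-0.05), embryo 2 and 5 (-0.11), and sperm 0 and 3 (-0.05). The part of these tissues in the nhr-57 and cysl-2 values was not tested.

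**Figure D2:**
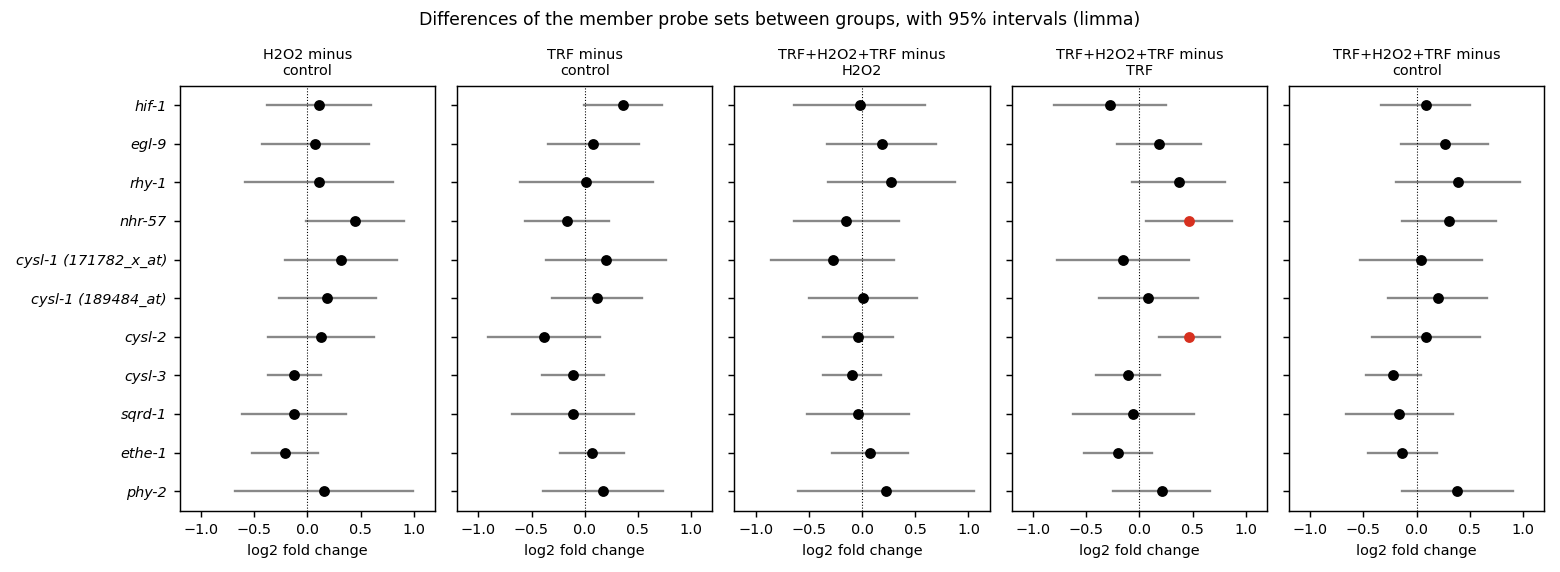
Log2 fold changes (horizontal axis) of the 11 member probe sets in the 5 comparisons, as points with 95% intervals from limma; the dotted line marks no difference, and red points mark members whose groups did not overlap. Only nhr-57 and cysl-2 in TRF+H2O2+TRF minus TRF are red, both at 0.47.

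In H2O2 against control worms, the comparison of the study's design that asks what peroxide did, 8 of the 11 members had higher means, against 49.5% of all tested probe sets, and the median difference was 0.11 against -0.002. The largest was that of nhr-57, at 0.45 ± 0.21 (95% interval -0.01 to 0.91; limma, adjusted p = 0.9998). The other targets among the members were nearer to 0, with cysl-2 at 0.12 ± 0.23, or between -0.03 and 0.31 with 1 array left out (below 0 without control array 5) and -0.04 with array weights. The regulator hif-1 differed by 0.11 ± 0.23, and its sign turned to -0.07 without H2O2 array 1. Probe set 171782_x_at of cysl-1 differed by 0.32 ± 0.24, and ethe-1, the lowest, by -0.21 ± 0.14. No member was called, as were 0% of all probe sets, and at an unadjusted p under 0.05 the share of all probe sets was 2.34%, with 0 members among them.

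Replicate numbers also paired the H2O2 and control arrays. In these pairs nhr-57 was higher in H2O2 worms in 5 of 5, by 0.16 to 0.64 on the log2 scale, the 1 member of 11 to be so, against 5.28% of all probe sets. With the number as a block its standard error was 0.12 and its adjusted p 0.297. Without the control and H2O2 arrays numbered 5, which were submitted later than the rest, the nhr-57 difference was 0.41. Of the members, 1 of 11 had an unadjusted p under 0.05 in the block fit, against 9.51% of all probe sets. Muscle markers were higher in H2O2 than in control worms in 6 of 6 genes, with a median of 0.43, and their summed signal was 14223 to 18024 in H2O2 worms against 8830 to 14659 in controls. Intestinal markers were higher in 5 of 6, with a median of 0.13 and sums of 3463 to 8782 against 3983 to 6708. Hypodermal markers were higher in 4 and lower in 1 (median 0.27), germline in 5 and 1 (0.05), and neuronal in 3 and 4 (-0.01). Yolk markers were higher in 5 and lower in 0 (0.11), embryo in 4 and 3 (0.25), and sperm in 2 and 1 (0.05). The part of these tissues in the nhr-57 difference was not tested.

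The pairs differed among themselves. In pair 5 all 11 members were higher in the H2O2 array than in its control, with a median of 0.46, against 51.5% of all tested probe sets. In pair 2, 2 were higher and 9 lower, with a median of -0.20, against 44.2% of all tested probe sets higher. The median log2 signal of the whole array was also higher by 0.20 in pair 5 and differed by -0.18 in pair 2. Over the tested probe sets the median difference was only 0.01 in pair 5 and -0.04 in pair 2. Pairs 1, 3 and 4 had 7, 6 and 8 members higher, with whole-array differences of 0.18, -0.01 and 0.18. The part of the array median in these counts was not tested.

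**Figure D3:**
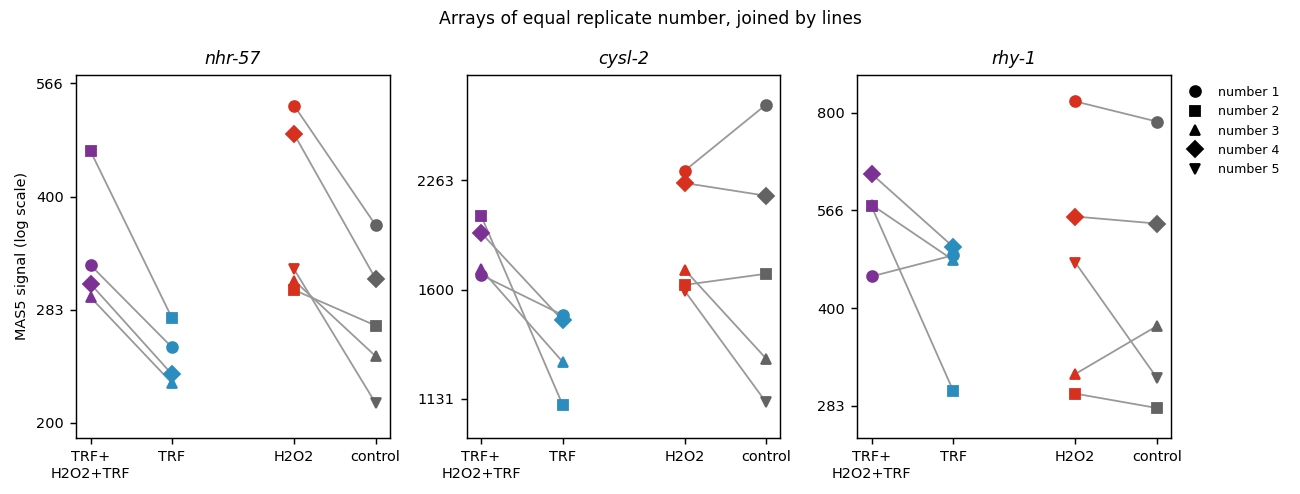
MAS5 signals (vertical axis, log scale) of nhr-57, cysl-2 and rhy-1 in arrays of equal replicate number joined by lines, TRF+H2O2+TRF with TRF on the left of each panel and H2O2 with control on the right. The nhr-57 lines all go the same way within each comparison, whereas the cysl-2 and rhy-1 lines between H2O2 and control run in both directions.

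In TRF against control worms, 7 of the 11 members had higher means, against 57.6% of all probe sets, with a median of 0.07 against 0.04 over all. The sign of the members' median depended on the scaling: it was -0.02 after quantile normalization and -0.03 after median centring of the arrays. The largest differences were those of hif-1 at 0.36 ± 0.17 (limma, adjusted p = 0.995) and of cysl-2 at -0.38 ± 0.24 (adjusted p = 0.995). In the 4 pairs of equal number hif-1 was higher in 4, by 0.03 to 0.76, and cysl-2 lower in 4, by -0.01 to -0.96. Of the members, 1 of 11 was higher in every pair and 2 of 11, with sqrd-1, were lower in every pair, against 9.55% and 7.07% of all probe sets. Numbers did not pair these groups by the correlation of their deviations. The difference of cysl-2 was -0.20 without control array 1, the highest cysl-2 array of the series, and that of nhr-57 was -0.17 ± 0.18. No member was called, against 0.00739% of all probe sets, which is 1 probe set, and 0 of 11 had an unadjusted p under 0.05, against 3.5%.

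In TRF+H2O2+TRF against H2O2 worms, the comparison that asks what TRF did around the peroxide, 5 members had higher and 6 lower means, against 54.7% higher over all probe sets, with a median of -0.02 against 0.02. The ends of the range were rhy-1 at 0.28 ± 0.28 and cysl-1 (171782_x_at) at -0.27 ± 0.27. For nhr-57 the difference was -0.15 ± 0.23 and for cysl-2 -0.04 ± 0.15 (limma, adjusted p = 0.9999). The sign for cysl-2 turned with array weights, to 0.02, and without TRF+H2O2+TRF array 1 or H2O2 arrays 1 or 4, 1 at a time, to at most 0.04. The 95% interval ran from -0.36 to 0.29 for cysl-2 and from -0.64 to 0.34 for nhr-57. Numbers did not pair these 2 groups by the correlation of their deviations either. Pair 1 had 10 of 11 members below the H2O2 array of its number, against 50.0% of all tested probe sets, and pair 2 had 10 of 11 higher, against 60.2%. The median log2 signal of the whole array differed by -0.06 in pair 1 and 0.33 in pair 2. In pairs 3 and 4, with 5 and 3 members higher, it differed by -0.08 and -0.20. The part of the array median in these counts was not tested. None of the 11 was called, as were 0% of all probe sets, and 0 of 11 had an unadjusted p under 0.05, against 2.23%.

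Against control worms, TRF+H2O2+TRF worms had higher means for 8 of 11 members, against 54.5% of all probe sets, with a median of 0.09 against 0.02. The largest were rhy-1 at 0.39 ± 0.27, phy-2 at 0.38 ± 0.24 and nhr-57 at 0.30 ± 0.20. The lowest was cysl-3 at -0.22 ± 0.12, lower in 4 of 4 pairs. Cysl-3 was the 1 member lower in every pair, against 6.55% of all probe sets, and egl-9 was the 1 member higher in every pair, against 6.87%. Here too, numbers did not pair the groups by the correlation of their deviations. The adjusted p was 0.9999 for every member and none was called, as were 0% of all probe sets; 0 of 11 had an unadjusted p under 0.05, against 2.84%. This comparison shares its controls with those above.

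An interaction was tested over all 18 arrays, as the TRF+H2O2+TRF minus TRF difference less the H2O2 minus control difference. The labels of TRF+H2O2+TRF and TRF worms also differ in the stated span of TRF, and the peroxide dose of the former is not given. The interaction therefore cannot tell an action of peroxide that depends on TRF from these differences in design. No member was called, as were 0% of all probe sets, and 0 of 11 against 1.14% had an unadjusted p under 0.05. The value for nhr-57 was 0.02 ± 0.29, with a 95% interval of -0.59 to 0.63 and a sign that turned when any 1 of 8 arrays was left out. For cysl-2 it was 0.34 ± 0.30, and the lowest was cysl-1 (171782_x_at) at -0.47 ± 0.38. The nhr-57 differences, 0.47 in TRF+H2O2+TRF against TRF worms and 0.45 in H2O2 against control worms, were thus not shown to differ or to be alike.

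How much of each member's spread lay between replicate numbers was computed from the sums of squares of log2 signals. There are more numbers than groups, so with no effect of either the number would on average hold the larger share. The shares were not adjusted for this, and a share above 0 does not by itself show an effect. In H2O2 and control arrays the number held a median of 75.9% over the members and 69.7% over all tested probe sets, and the group 3.27% and 3.96%. The highest share of the number was that of rhy-1, 92.9%, followed by egl-9 with 91.6% and sqrd-1 with 88.5%. For nhr-57 the group held 34.0% and the number 60.6%, which left 5.42% to neither. In contrast ethe-1 had only 2.59% between numbers.

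In TRF+H2O2+TRF and TRF arrays the number held a median of 47.7% over the members and 70.5% over all probe sets, and the group 14.3% and 4.35%. The group's share was 73.2% for cysl-2, with 6.40% for the number, and 58.6% for nhr-57, with 35% for the number. For ethe-1 the group held 47.1%, the third of the members, at a log2 fold change below 0.

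**Figure D4:**
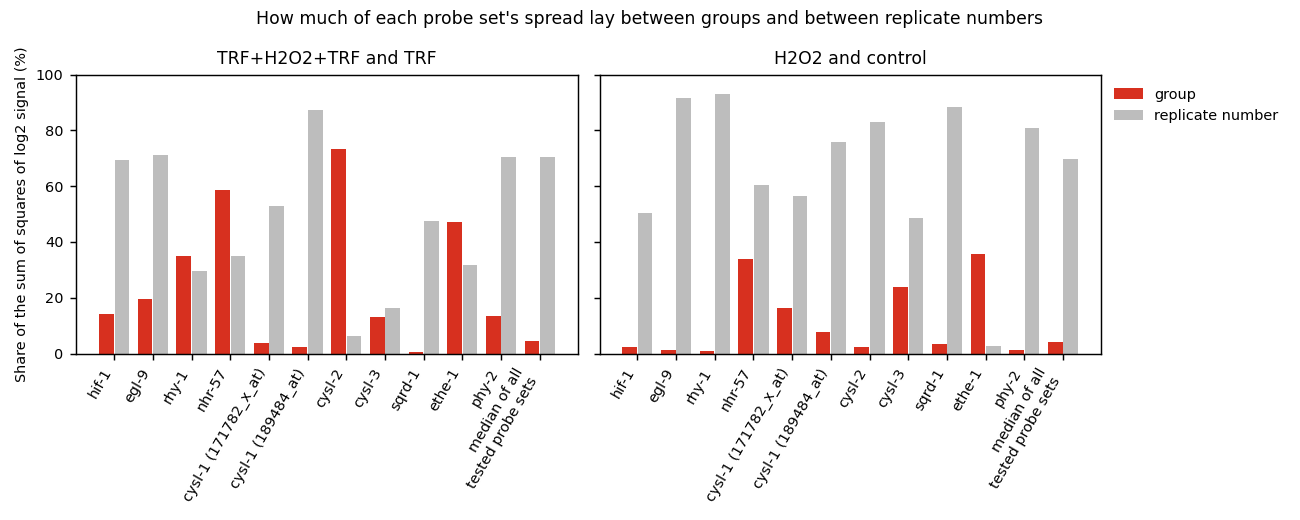
Share of each member probe set's sum of squares of log2 signal (vertical axis, percent) between groups (red) and between replicate numbers (grey), for TRF+H2O2+TRF with TRF arrays and for H2O2 with control arrays; the last pair of bars is the median of all tested probe sets. The red bar is the taller one for cysl-2, nhr-57, ethe-1 and rhy-1 on the left, and only for ethe-1 on the right.

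The members' log2 signals were correlated over the 18 arrays, as a description, since the arrays share groups, numbers and a common scaling. The 55 pairs of member probe sets had a median r of 0.409, 42 of them above 0, while the median over all pairs of tested probe sets was 0.002. At r of 0.7 or more there were 6 member pairs of 55, 1 of them the pair of cysl-1 probe sets and 5 between different genes, against 1.90% of all pairs. The 10 pairs among egl-9, rhy-1, nhr-57, cysl-2 and phy-2, all known HIF-1 targets, ranged from 0.482 to 0.809 with a median of 0.635. Of all pairs of tested probe sets, 9.69% reached the lowest of these values. The highest was rhy-1 with phy-2, and nhr-57 with cysl-2 was at 0.787.

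With each group centred on its mean, the 10 pairs had a median of 0.678, so the correlation was also present within groups. Without the 4 arrays numbered 1, an alternative chosen after seeing the data, their median was 0.436 over 14 arrays, with a range of 0.266 to 0.793. The transcript of hif-1 did not follow these targets as closely, with r of 0.15 to nhr-57 and -0.11 to cysl-2, but 0.66 to phy-2. Neither cysl-3 nor ethe-1 followed them, and nhr-57 with ethe-1, at -0.43, was the lowest pair. The sulphide gene sqrd-1 followed them only weakly to moderately. Its r was 0.233 to nhr-57, 0.339 to cysl-2, 0.405 to rhy-1, 0.459 to phy-2 and 0.499 to egl-9.

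**Figure D5:**
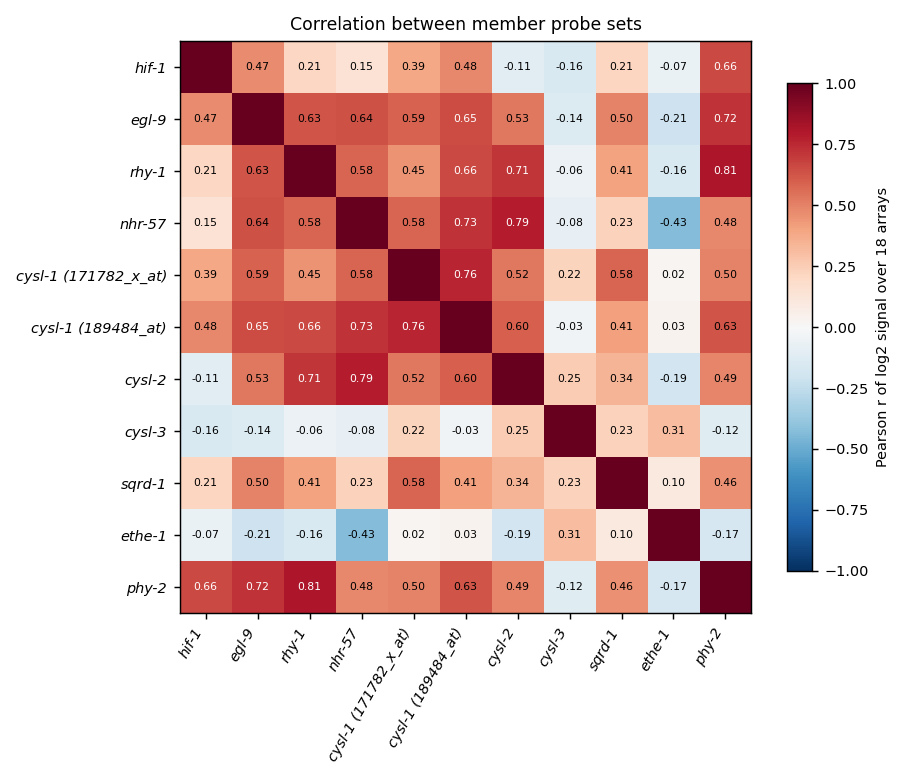
Pearson correlation of log2 signals over 18 arrays between the 11 member probe sets, on a colour scale from -1 (blue) to 1 (red), with the value in each cell. The rows of egl-9, rhy-1, nhr-57, cysl-2 and phy-2 hold values of 0.48 to 0.81 with each other, and those of cysl-3 and ethe-1 hold values of -0.43 to 0.25 with these 5.

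Tissue markers varied with the same targets. The mean z score of the 5 targets correlated over 18 arrays at r = 0.878 with the mean log2 signal of the 6 intestinal markers (Spearman's rho 0.889, and r = 0.812 without the 2 most distant arrays). The hypodermal markers gave r = 0.803, those of body wall muscle 0.701, neurons 0.524, germline -0.402 and sperm 0.090, and the array median 0.687. For yolk and embryo markers r was -0.067 and -0.062. The log2 ratio of actin 3' to 5' control probes, a sign of RNA quality, gave -0.469. The same ratio for Gapdh gave -0.166 and that for ubiquitin 0.032, so these measures of RNA quality differed. Summed intestinal signals ranged from 3463 to 8782 among H2O2 arrays alone, and hypodermal ones from 10129 to 20005. The part of tissue content, scaling or RNA quality in the shared variation was not tested.

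Among all tested probe sets with 1 symbol, the gene whose pattern over the 18 arrays was most like that of hif-1 was nfm-1 (r = 0.888). For egl-9 it was rig-6 (0.862), for rhy-1 cept-1 (0.891), for nhr-57 H40L08.2 (0.855), for cysl-2 add-1 (0.847) and for phy-2 gid-2 (0.930). The 2 cysl-1 probe sets were nearest to unc-17 (0.919, 171782_x_at) and lon-8 (0.922, 189484_at), and sqrd-1 to C17E4.20 (0.820). The likeness was weaker for ethe-1, with msa-1 at 0.745, and for cysl-3, with unc-43 at 0.716, the latter at 0.599 without the 2 most distant arrays. No member was the nearest gene of another. The mean z score of all members was most like kin-15 (0.925), Y102A11A.5 (0.911), zipt-13 (0.904), cht-5 (0.904) and Y47D7A.13 (0.898).

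Of other genes around the pathway, grouped in 5 lists, 0 were called in any comparison. Of the 9 tested genes in the list of HIF-1 targets, 5 are the targets above. This list had 8 higher and 1 lower mean in H2O2 than in control worms. Its median was 0.12 against -0.002 over all probe sets. The lower mean was that of the ferritin gene ftn-1 (-0.28 ± 0.30), which HIF-1 is known to repress when iron is low. The ftn-2 mean was higher (0.22 ± 0.11). The list thus does not hold only genes that HIF-1 raises, and its counts do not measure 1 direction of response. In TRF against control worms it had 6 higher and 3 lower. There the smallest unadjusted p were those of ftn-1 and cdo-1. Signals of ftn-1 were 3018, 4263, 3410 and 2773 in TRF worms and 1256, 2911, 1216, 1457 and 2766 in controls. The groups met only at the lowest TRF and the highest control array, with a log2 fold change of 0.90 ± 0.27 (limma, adjusted p = 0.995; higher in 4 of 4 pairs). For cdo-1, the cysteine dioxygenase gene, signals were 1898, 1574, 1496 and 1777 in TRF worms and 2252, 2168, 1836, 2460 and 1791 in controls. Its log2 fold change was -0.31 ± 0.13 (limma, adjusted p = 0.995). In TRF+H2O2+TRF against TRF worms the list had 7 higher and 2 lower means. There ftn-1 and cdo-1 differed the other way, by -0.53 ± 0.18 and 0.30 ± 0.14 (limma, adjusted p = 0.9999). Both comparisons share the TRF arrays.

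The list of HIF-1 regulation and the VHL ubiquitin ligase, with 8 genes tested, had 4 higher and 4 lower means in H2O2 than in control worms, and 1 higher, hif-1 itself, and 7 lower in TRF than in control worms. Its second smallest unadjusted p was that of swan-1, whose WD-repeat protein binds EGL-9, at -0.32 ± 0.16 in H2O2 against control worms (limma, adjusted p = 0.9998). The sulphide and sulphur amino acid list had 12 of 21 genes tested, 7 higher and 5 lower in H2O2 than in control worms, and beside cdo-1 its smallest p was that of the cystathionine gamma-lyase gene cth-2, at -0.20 ± 0.14 in TRF against control worms. Prolyl 4-hydroxylases and their subunit pdi-2 had 3 genes tested, with differences of -0.33 ± 0.25 for phy-3 in TRF+H2O2+TRF against H2O2 worms and 0.20 ± 0.21 for pdi-2 in TRF against control worms. Glycolysis, a set of enzymes that HIF-1 induces in mammals, had 15 genes tested, 10 higher and 5 lower in H2O2 than in control worms. The fructose-bisphosphate aldolases had its smallest p, aldo-2 at -0.18 ± 0.08 in TRF+H2O2+TRF against H2O2 worms (limma, adjusted p = 0.9999) and aldo-1 at 0.43 ± 0.21 in H2O2 against control worms (limma, adjusted p = 0.9998).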

How the data were processed

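Total RNA of 18 samples of whole worms was amplified and biotin-labelled for Affymetrix arrays, per the labels' protocols. The deposited values are intensity values, 1 table of 22625 probe sets made with MAS5 in Affymetrix Expression Console per the submitters' processing notes, whose versions and genome build are not given in the sources used here. The mean signal, trimmed by 2% at each end, was 499.8 to 499.9 on every array. Signals were used as log2(signal + 1), without further normalization. Leaving out 77 controls, the 13529 probe sets whose mean reached the 40th percentile were tested. Of these, 12880 had 1 symbol, 410 several and 239 none here.

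Groups were compared in pairs with limma 3.58.1 in R 4.3.3 (lmFit, eBayes with a trend, two-sided, Benjamini-Hochberg adjusted p under 0.05), and the interaction over 18 arrays. The scripts were tested on simulated data. Deviations from group means correlated at 0.280 to 0.681 between equal numbers of H2O2 and control and at 0.350 to 0.686 for TRF+H2O2+TRF and TRF, so numbers pair these groups; in the other comparisons the lowest were below 0.1. Members and lists were chosen with earlier results of these data known. Named genes were all member probe sets, the 2 genes with the smallest unadjusted p of each neighbouring list over the 3 comparisons of the study's design, and the genes most alike in pattern. Other filters, normalizations, variance models, a replicate block, the methods' t-test and leaving out arrays were tried. No sequences are shown here.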

Additional observations from a re-analysis of the deposited data

Results flagged for a closer look

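In the TRF group, the rhy-1 signal of array 2 was 299, whereas the other 3 TRF arrays lay between 474 and 497. The probe set shared by rhy-1 and oac-54 gave 231 on the same array, against 567 to 607 on the other 3. Of 48 groups of values tested for 1 array far from the rest, these 2 were flagged, which is not above the rate of about 1 in 20 that chance gives. Both probe sets are annotated to rhy-1, so they are not independent.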

How the results depend on the processing

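No setting called a member. Over the settings that kept all arrays or left out only the later ones (control and H2O2 arrays numbered 5), 264 of 266 log2 fold changes reported for members kept their direction. Those that turned were cysl-2 in H2O2 against control (-0.0361) and in TRF+H2O2+TRF against H2O2 (0.0151), both with array weights. The 266 do not cover members whose value is not printed above, and the counts of higher means do. The replicate block kept only numbers found in both groups. In the next 2 comparisons it used 8 arrays and left out control array 5. Its values there are thus differences from the other controls, and the shifts come with the loss of that array. With this block, egl-9 went from 0.08 to -0.01 and rhy-1 from 0.02 to -0.09 in TRF against control. In TRF+H2O2+TRF against control, cysl-2 went from 0.09 to -0.07 and cysl-1 (171782_x_at) from 0.04 to -0.12. Those counts thus depend on the setting. With 1 array left out in turn, cysl-2 ranged from -0.0307 to 0.3107 in H2O2 against control and from -0.0964 to 0.0413 in TRF+H2O2+TRF against H2O2, hif-1 from -0.0700 to 0.2801 in H2O2 against control, and the nhr-57 interaction from -0.1246 to 0.1412. Over all settings nhr-57 stayed above 0 in H2O2 against control (0.327 to 0.551) and, like cysl-2 (0.386 to 0.523), in TRF+H2O2+TRF against TRF (0.324 to 0.544). Over all probe sets, TRF against control gave 1 call, 2 with median centring, 0 by the methods' t-test (unpaired, named in the design) with adjusted p-values (561 at an unadjusted p under 0.05), and 1 to 2 with 1 array left out, 2 without TRF array 2. TRF+H2O2+TRF against TRF gave 0 calls and 1 with the replicate block, and TRF+H2O2+TRF against control 0, and 0 to 1 with 1 array left out (1 without control array 4 or without TRF+H2O2+TRF array 4). The replicate block changed no other call. The causes of these changes in calls were not tested. The number of arrays limits precision: the median standard error of the members was 0.20 to 0.23 in the comparisons of 2 groups.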
